A study of Mus musculus with 10 samples.

Results

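MC3T3 cells kept in the presence of GSK126 were followed here from day 3 to day 6 of osteogenic culture, by setting the RNA library of GSK126 cells taken on day 6 against the one taken on day 3. These are 2 of the 10 samples of the series and 2 of its 6 RNA libraries, and all genes of the count table entered the comparison. Of 23358 rows, 11965 were measured, which means a level of at least 1 CPM (read counts scaled to a common library total with factors from the trimmed mean of M values, TMM) in either library. MC3T3 is an established mouse line of pre-osteoblasts from calvaria, the flat bone of the skull, and every group came from this 1 line. All groups were grown in osteogenic medium, which contained beta glycerol phosphate and ascorbic acid. The treated cells received 5 µM GSK126 and the controls received vehicle, at the start and again 3 days later. Both were withdrawn on day 6, and nothing in the labels says whether the samples of days 3 and 6 were taken before or after the change made on that day. Chromatin carrying H3K27me3 had been collected 24 hours after the first dose, with input DNA, in both treatments.

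GSK126 blocks EZH2, the enzyme of Polycomb repressive complex 2 (PRC2) that methylates lysine 27 of histone H3. Its product H3K27me3 marks genes that are kept silent, among them many developmental genes. Osteoblast maturation is known to run from proliferation through the deposition of a type I collagen matrix to mineralization, and osteocalcin is a classical late product of this course.

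Total counts were 107604258 on day 3 and 101690602 on day 6 with GSK126, and 111537936 and 104690066 with vehicle. The ribosomal RNA precursor Rn45s took 4.44% and 5.61% of the counts with GSK126, and 4.37% and 5.99% with vehicle. Every group held 1 library, so no difference below has a replicate check, and no p-value or standard error is given. Bracketed ranges are 95% exact binomial intervals of 1 pair of libraries, computed on fragments, and they cover counting error only. A ratio is the TMM-normalized level of day 6 over that of day 3 on a log2 scale with a prior count of 2, so positive values mean higher on day 6. "Rose" and "fell" below mean at least 2-fold between these 2 libraries, with no statement about other cultures.

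The cells carried the transcripts of their labelled type. In the authors' RPKM, a level per coding length and library depth, Col1a1 stood at 4950 on day 3 and 6040 on day 6 with GSK126, and Ibsp at 224 and 790. Runx2, the transcription factor that commits cells to the osteoblast lineage, stood at 41.6 and 38.0. Many defining genes of other lineages were at or near 0: Myod1, Myf5, Myf6, Emr1, Tyrobp, Kdr and Sox17 had 0 counts in both GSK126 libraries. Ptprc had 6 counts on day 3 and 2 on day 6, and Cdh5 had 2 and 0. Over whole lists, 2 of 12 adipocyte, 3 of 13 skeletal muscle, 3 of 12 blood and 2 of 10 endothelial markers were measured. Those measured include Flt1, a receptor for vascular growth factors, with 7580 and 5070 counts in the GSK126 libraries, and Lyz2, lysozyme, with 1288 and 1948, so these lists were not empty. Other lists had larger shares measured, with 10 of 18 cartilage genes and 9 of 14 fibroblast and tendon markers. Among these, Col2a1 stood at 89.9 and 37.5 RPKM and Postn at 702 and 270 with GSK126, so transcripts known from other tissues were present too.

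GSK126 cells on day 6 had more transcript of late osteoblast genes and less of cell division genes than on day 3. A total of 527 genes rose (4.4% of those measured) and 541 fell (4.52%). The median ratio over all measured genes was 0.02, and 6193 of them (51.8%) were above 0. With vehicle, measured the same way in 2 other libraries, 219 of 11748 genes rose (1.86%) and 130 fell (1.11%). At 4-fold or more, 152 genes were higher and 56 lower with GSK126, against 58 and 17 with vehicle. Scaling by library size alone, with no TMM factor, lowered the median of all genes by 0.12, and the split became 426 higher and 684 lower (38.4% higher, against 49.3% with TMM). Genes that rose were low at the start, with a median of 1.35 log2 CPM on day 3, where genes that fell stood at 4.55 and all measured genes at 4.91. The minimum level shapes this contrast, since 183 of the 527 genes that rose were under 1 CPM on day 3 and entered through day 6, while all that fell were measured on day 3.

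The rule of 2-fold cuts through a continuous range of ratios. Just inside it on the higher side stood Pik3ip1 (1.001) and Tinagl1 (1.0022), and just outside stood Emx2 (0.9984) and Mxra8 (0.9989). On the lower side Vcan (-1.0045) and Ncapd3 (-1.0035) were just inside, and Notch1 (-0.9971) and Xrcc2 (-0.9968) just outside.

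The course with GSK126 ran mostly in the same direction as that with vehicle, and farther. Among 11661 genes measured in both courses, the standard deviation of the ratios was 0.59 with GSK126 and 0.41 with vehicle, and Pearson's r between them was 0.74 (taken across genes, so it is no replicate measure). The 2 courses share no library. Of the 207 genes that rose with vehicle, 148 (71.5%) also rose with GSK126, which is 39.1% of the 379 that rose with GSK126. Of the 114 that fell with vehicle, 77 (67.5%) also fell with GSK126, which is 14.7% of 523. For the genes that rose with vehicle the median ratio was 1.39 there and 1.49 with GSK126, and for those that fell it was -1.23 and -1.37. Among the genes measured in both courses, Kcnf1, a potassium channel subunit named after its values were seen, was the 1 gene that rose with GSK126 (124 to 386 counts, 1.82) and fell with vehicle (-2.01). The reverse was found for 0 genes.

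**Figure D1:**
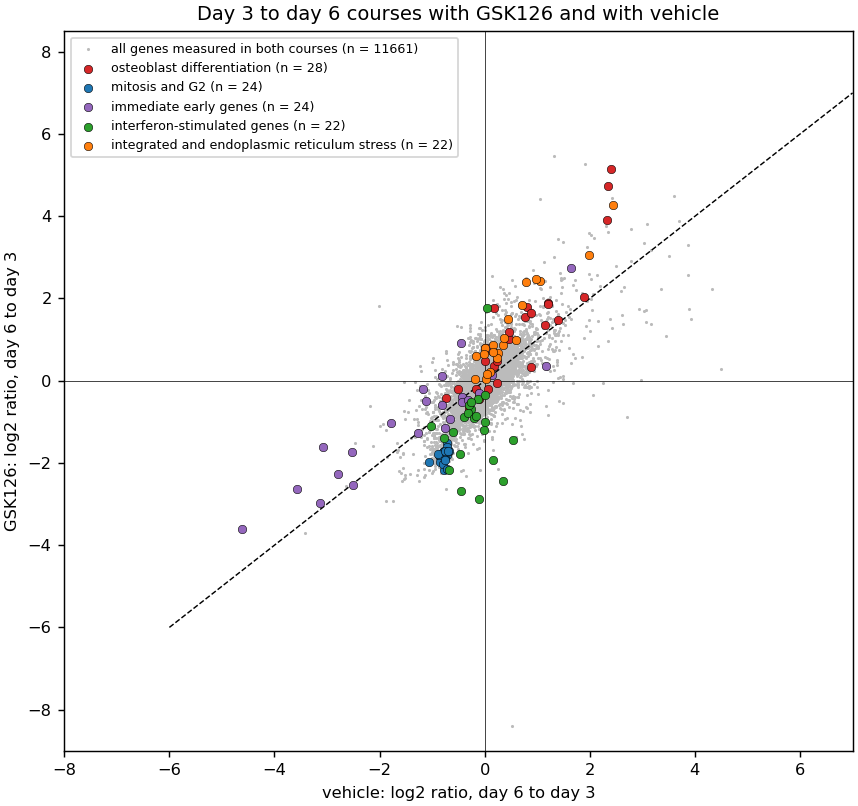
Each point is a gene, placed by its log2 ratio of day 6 to day 3 with vehicle (horizontal) and with GSK126 (vertical), with members of 5 gene lists in colour and a dashed line where the courses are equal. The mitosis list lies below the line between -2.18 and -1.53 on the vertical axis, and the osteoblast points reach 5.16 above.

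Motifs known for the regulation of several of the lists below were counted in their promoters, and 1 window is printed for each of 5 lists. The windows are the 250 bases before the annotated start from RefSeq, build GRCm38.p6 (the primary coordinates of mm10), searched on both strands, with 32851 such windows over all genes. Windows were found for 20 of 24 mitosis, 21 of 26 S phase, 20 of 27 interferon and 20 of 26 immediate early genes. They were found for 18 of 22 stress, 18 of 28 osteoblast and 16 of 24 cholesterol genes. A match describes letters in the window and is neither a binding site nor a cause. For the mitosis list, Ccnb2 (chr9:70421555-70421804, minus strand), which encodes the mitotic cyclin B2, held 3 CCAAT boxes and 1 CHR element (TTTGAA), all in capitals.

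Ccnb2: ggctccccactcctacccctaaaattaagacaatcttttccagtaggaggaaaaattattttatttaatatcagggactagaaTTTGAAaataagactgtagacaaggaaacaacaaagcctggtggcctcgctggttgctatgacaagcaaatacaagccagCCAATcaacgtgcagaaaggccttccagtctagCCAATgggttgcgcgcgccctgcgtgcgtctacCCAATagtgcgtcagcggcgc

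CCAAT was present in 19 of 21 windows of the mitosis list (90.5%), against 33.8% of all windows, and TTTGAA in 8 (38.1%), against 16% of all. For the S phase list, Mcm6 (chr1:128359706-128359955, minus strand), a subunit of the replicative helicase, is shown with its matches to the E2F motif TTTNNCGC in capitals. There are 3 matches, and those on opposite strands overlap in the first capital run.

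Mcm6: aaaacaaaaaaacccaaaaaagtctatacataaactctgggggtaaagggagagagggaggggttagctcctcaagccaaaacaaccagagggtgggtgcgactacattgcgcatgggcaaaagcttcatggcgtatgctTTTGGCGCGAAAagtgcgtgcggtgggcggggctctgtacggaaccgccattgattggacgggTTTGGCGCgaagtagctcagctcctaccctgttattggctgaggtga

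The E2F motif was present in 8 of 23 windows of the S phase list (34.8%), against 4.28% of all windows. For the interferon list, Ifit1 (chr19:34640639-34640888, plus strand), an antiviral RNA-binding protein, held 2 matches to the interferon-stimulated response element (GAAA, any 2 bases, GAAA), in capitals as they read on the opposite strand.

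Ifit1: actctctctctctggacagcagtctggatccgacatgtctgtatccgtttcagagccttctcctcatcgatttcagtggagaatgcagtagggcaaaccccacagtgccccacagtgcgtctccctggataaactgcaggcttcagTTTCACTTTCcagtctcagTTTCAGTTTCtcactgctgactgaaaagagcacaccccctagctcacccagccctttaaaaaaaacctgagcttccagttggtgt

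This motif was present in 10 of 23 windows of the interferon list (43.5%), against 2.98% of all. For the immediate early list, Zfp36 (chr7:28379229-28379478, minus strand), which encodes a protein that speeds the decay of AU-rich messages, held 1 CArG box, the serum response element core, in capitals.

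Zfp36: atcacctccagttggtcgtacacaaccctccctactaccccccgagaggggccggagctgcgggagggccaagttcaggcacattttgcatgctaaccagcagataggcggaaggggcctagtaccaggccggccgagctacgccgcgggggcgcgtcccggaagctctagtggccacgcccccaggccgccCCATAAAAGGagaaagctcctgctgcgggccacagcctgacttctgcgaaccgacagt

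The CArG box was present in 6 of 24 windows of that list (25%), which belong to 3 genes, Dusp5, Egr2 and Zfp36, against 1.47% of all windows. For the stress list, Slc7a11 (chr3:50443614-50443863, minus strand), the cystine transporter, held 2 matches to the amino acid response motif TGATGNAA, on opposite strands and in capitals.

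Slc7a11: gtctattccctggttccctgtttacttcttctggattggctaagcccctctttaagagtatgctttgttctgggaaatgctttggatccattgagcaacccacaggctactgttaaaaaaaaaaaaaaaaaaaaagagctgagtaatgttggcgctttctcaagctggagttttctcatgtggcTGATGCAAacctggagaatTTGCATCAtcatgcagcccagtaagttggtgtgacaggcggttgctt

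That motif was present in 4 of 19 windows of the stress list (21.1%), those of Asns, Chac1, Herpud1 and Slc7a11, against 3.45% of all. In the osteoblast list the RUNX motif AACCACA was present in 3 of 23 windows (13%), those of Runx2, Slc20a1 and Spp1, against 4.4% of all. In the cholesterol list the sterol response motif TCACNCCAC was present in 1 of 19 windows (5.26%), against 1.05% of all.

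Several genes of the mineralizing osteoblast rose. Of the 28 genes of the osteoblast list, all measured, 14 rose, 0 fell and 14 stayed under 2-fold. Over all measured genes 4.4% rose and 4.52% fell. Ratios were below 0 in 8 of the 28. The list's median ratio was 0.90 with GSK126 and 0.35 with vehicle, where 8 rose. In 21 of the 28 the ratio was higher with GSK126 than with vehicle, and this count was the same under the 4 other scalings tried. In bulk RNA, more cells of a type and more RNA per cell cannot be told apart.

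Osteocalcin, the late vitamin K-dependent protein of bone matrix, rose most of the fixed markers. Bglap (chr3:88383495-88384464, mm10) had 324 counts on day 3 and 7600 on day 6 with GSK126, and 80 and 368 with vehicle. Its ratio was 4.75 [4.53, 4.99], a 26.8-fold rise, and 2.34 with vehicle. The day 6 library of GSK126 cells was far above the other 3, and the day 3 library already stood near the vehicle level of day 6. Bglap2, the neighbouring near-identical copy, went from 96 to 3048 counts (5.16 [4.78, 5.64]) and from 48 to 236 with vehicle. Reads of these copies can be split between them in counting, so their separate values are uncertain.

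Ibsp (chr5:104299287-104311472), bone sialoprotein, which binds mineral and cells, had 60794 and 195424 counts with GSK126 on days 3 and 6, and 20362 and 41980 with vehicle. It rose 3.70-fold (1.89 [1.87, 1.91]), and with vehicle 2.32-fold. Both GSK126 libraries were above both vehicle libraries, so for Ibsp the treated cells started the interval higher. Spp1, osteopontin, had 31692 and 93402 counts with GSK126 and 32178 and 32556 with vehicle, with ratios of 1.76 [1.74, 1.79] and 0.18. Here the treated and control libraries of day 3 were level, and 1 library of the 4, GSK126 on day 6, was high.

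Ifitm5, a membrane protein of mineralizing osteoblasts, rose from 388 to 5082 counts (3.91 [3.70, 4.13]), and from 94 to 428 with vehicle. Dlx3, a homeodomain factor of osteoblasts, rose from 486 to 1724 counts (2.02 [1.82, 2.24], 4.07-fold), against 224 and 748 with vehicle (3.72-fold). Dlx3 thus had much the same ratio in both courses, where Ifitm5 had a larger one with GSK126. Phospho1 and Smpd3, enzymes that release phosphate and choline from lipids in matrix vesicles, rose by 1.87 and 1.80, against 1.20 and 0.81 with vehicle. Sparc, osteonectin, rose by 1.54, Pth1r, the parathyroid hormone receptor, by 1.18 and Enpp1, which makes the mineralization inhibitor pyrophosphate, by 1.35. Alpl, tissue-nonspecific alkaline phosphatase, had 1714 and 2988 counts with GSK126 and 1256 and 1538 with vehicle. Its ratio of 1.00 [0.88, 1.13] lay at the threshold, and with library-size scaling the list had 13 genes past it.

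Other transcription factors of the lineage stayed under 2-fold. Sp7, osterix, which acts downstream of Runx2, had 16606 and 23896 counts with GSK126 and 11348 and 11160 with vehicle, with ratios of 0.73 [0.69, 0.77] and 0.14. Runx2 had 39952 and 33292 counts with GSK126 and 28350 and 29498 with vehicle, a ratio of -0.06 [-0.09, -0.03] and 0.22 with vehicle. Its span overlaps Supt3h, and the library kit does not mark strand, so reads of the shared stretch cannot be told apart. Msx2, a further transcription factor of skull osteoblasts, had a ratio of -0.65 with GSK126. Col1a1, the main chain of bone collagen, had ratios of 0.36 with GSK126 and 0.18 with vehicle, and Col1a2 0.49 and 0.24.

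**Figure D2:**
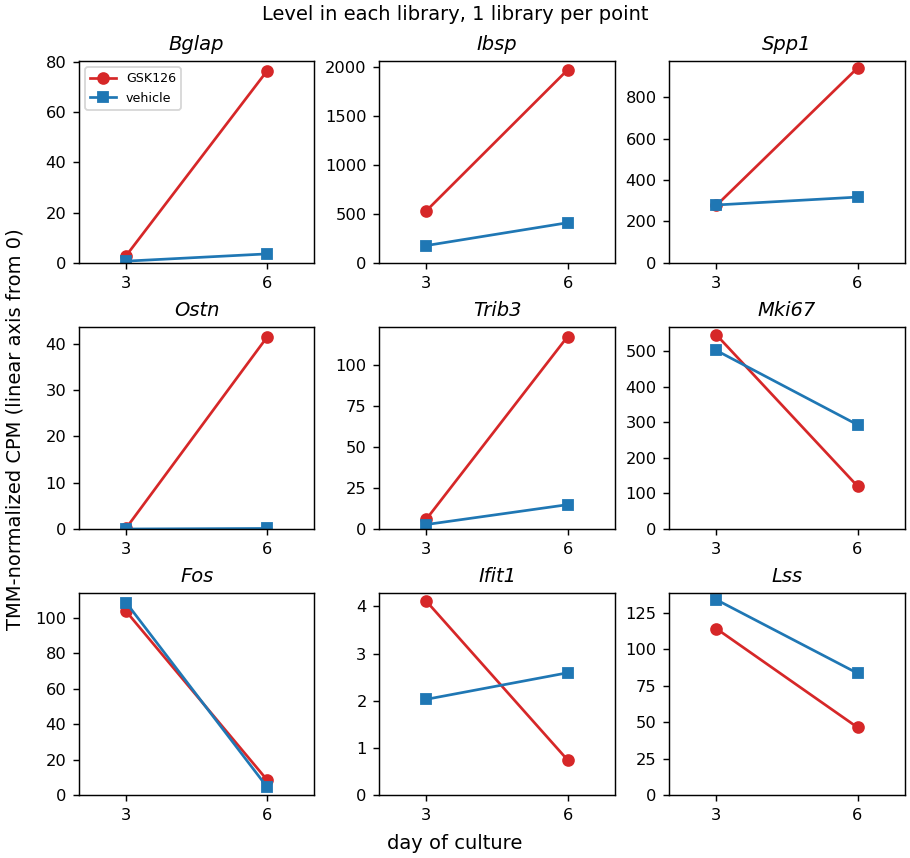
TMM-normalized CPM on days 3 and 6 for 9 genes, each panel with its own linear axis from 0 and 1 library per point. Bglap, Ostn and Trib3 are high in the GSK126 library of day 6 alone, Mki67 and Lss are lowest there, and Fos is low on day 6 in both courses.

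The gene with the largest ratio was Ostn (chr16:27307641-27351209), osteocrin or musclin, a small secreted peptide of osteoblasts and muscle. It had 20 counts on day 3 and 4126 on day 6 with GSK126, and 0 and 12 with vehicle, a ratio of 7.74 [7.01, 8.95]. Of the 4 libraries of days 3 and 6, the GSK126 library of day 6 alone held it above 1 CPM, with 41.5 CPM, and it had 912 counts with GSK126 and 0 with vehicle on day 10. Gpr141, an orphan receptor, went from 10 to 644 counts (5.93 [4.97, 7.84]), against 0 and 4 with vehicle. Avil, advillin, an actin-binding protein, went from 312 to 12000 counts (5.46 [5.24, 5.71]), against 254 and 570 with vehicle. For these genes the day 6 library with GSK126 was again the 1 high library of the 4. Cdsn, corneodesmosin, an adhesion protein known from skin, rose from 3972 to 73676 counts (4.42 [4.35, 4.48]), against 4950 and 9116 with vehicle. The GSK126 library of day 3 was the lower of the pair of that day for Cdsn, so its rise did not start from a higher level.

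The other genes of the 15 largest rises had ratios of 3.77 to 5.28. They were Atp2a3 (5.28), a calcium pump of the endoplasmic reticulum, Slc36a2 (4.59), an amino acid transporter, Dpt (4.48), the matrix protein dermatopontin, and Cox6a2 (4.45), a subunit of cytochrome oxidase known from muscle. Trib3 (4.28), Cd300lb (3.94), an immunoglobulin-like receptor, Itgbl1 (3.81) and Fam167a (3.77) made up the rest. Dpt and Itgbl1 had the highest vehicle ratios of these, 3.61 and 3.08. Each of the 15 had a ratio above 0 with vehicle too. For Gpr141 that ratio rests on 0 and 4 counts, and its counting interval includes 0.

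**Figure D3:**
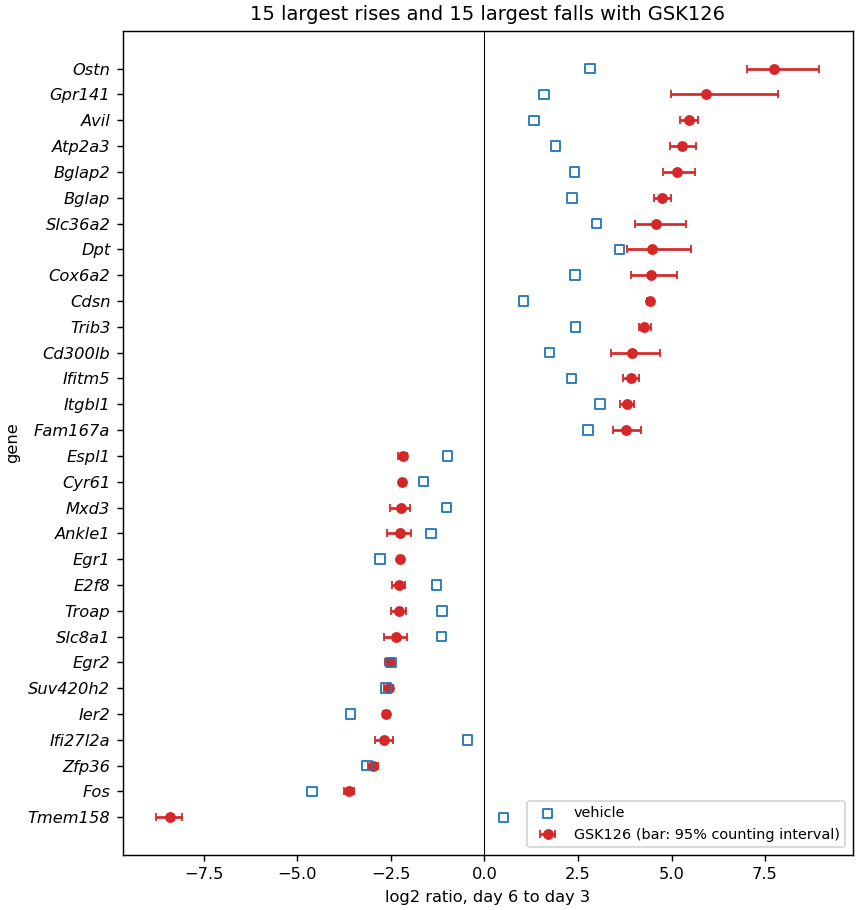
Log2 ratios of day 6 to day 3 for the 15 largest rises and 15 largest falls with GSK126 among genes of at least 5 CPM. Red points carry 95% counting intervals, and squares give vehicle, where Ostn and Gpr141 had 0 counts on day 3, so their squares depend on the prior count. Ostn lies at 7.74 and Tmem158 at -8.41.

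Other genes of the bone and matrix programme were described by list. With 4.4% of all measured genes higher and 4.52% lower, small counts in these short lists are not read as results. Collagen-modifying enzymes had a median ratio of 0.41 (vehicle 0.14), with 3 of 21 past 2-fold higher and 1 lower. P4ha1 (1.32) and P4ha2 (1.25), catalytic chains of collagen prolyl hydroxylase, rose, and P4ha3 fell by 1.07. Loxl4, a lysyl oxidase that crosslinks collagen, had 10822 and 20820 counts with GSK126 and 11758 and 9796 with vehicle, with ratios of 1.15 and -0.10. Collagens themselves had a median of 0.18 (vehicle 0.21), and 3 of 18 measured rose: Col22a1 (2.29), Col24a1 (1.46) and Col15a1 (1.16). Of these, Col22a1 had 186 and 798 counts with GSK126, against 174 and 190 with vehicle, and the other 2 had 1.17 each with vehicle.

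Among 16 measured matrix proteases and inhibitors 4 rose and 1 fell, beside 4.4% and 4.52% of all measured genes. Mmp13, the collagenase of bone remodelling, rose by 2.28 with GSK126 and by 2.65 with vehicle. Timp3, an inhibitor of such proteases, had 28756 and 91052 counts with GSK126 (1.87 [1.84, 1.89]) and 39416 and 41046 with vehicle (0.23), with the GSK126 library of day 6 alone high. Timp1 rose by 1.33 and the low Adamts18 by 2.96, while Adamts1 fell by 1.29. The spans of Timp1 and Timp3 overlap Syn1 and Syn3. Of the small leucine-rich proteoglycans, Omd, osteomodulin, rose by 1.47, and by 1.40 with vehicle. Lum, lumican, had a ratio of 0.84 with GSK126, where it rose by 2.16 with vehicle, and Aspn, asporin, had -0.51, against 0.33 with vehicle.

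Osteocyte genes were divided. Dmp1, a mineral-binding matrix protein, had 738 and 1858 counts with GSK126 and 478 and 1164 with vehicle, with ratios of 1.53 [1.36, 1.71] and 1.45. Dkk1, a Wnt antagonist, rose from 40 to 104 counts (1.53 [0.81, 2.40]), and stood at 28 and 30 with vehicle. Phex, a peptidase that restrains phosphate wasting, had a ratio of 0.34, against 0.89 with vehicle, and Mepe, another phosphate-related matrix protein, had 80 and 114 counts (0.70) against 20 and 72 with vehicle. Sost, sclerostin, had 0 and 2 counts, and Fgf23 had 0 in both GSK126 libraries. The list's median over 8 measured genes was 0.17 (vehicle 0.06), with 2 past 2-fold, and it was -0.03 for members of at least 5 CPM.

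Cartilage genes went both ways, with 4 of 10 measured higher, 3 lower and a median of -0.03. Of those higher, Col9a1 and Matn1 were under 1 CPM on day 3 with GSK126 and entered through day 6. Col9a1, a chain of the fibril-associated collagen IX, had 70 and 760 counts with GSK126 and 12 and 10 with vehicle (3.60 [3.14, 4.19] and -0.08). Col11a2 rose from 1560 to 14072 counts (3.37 [3.27, 3.48]), against 978 and 2462 with vehicle (1.50). Col2a1, the main collagen of cartilage, fell from 63954 to 24314 counts, and from 23872 to 5784 with vehicle (ratios of -1.19 and -1.88). Acan, aggrecan, had 0 counts in all 4 libraries, and Sox9 had a ratio of -0.13, so the members that moved did not include these cartilage genes.

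Genes of cell division fell as a block. All 24 genes of the mitosis list fell with GSK126, with ratios between -2.18 and -1.53 and a median of -1.78, where 4.52% of all measured genes fell. With vehicle the same genes had ratios between -1.06 and -0.69 and a median of -0.77, and 1 of 24 fell 2-fold. Each of the 24 was lower with GSK126 than with vehicle, and the ranges of the 2 courses did not overlap. All 24 fell, and lay below vehicle, under the 4 other scalings too.

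Mki67 (chr7:135689788-135716379), the proliferation antigen Ki-67, had 62534 and 11984 counts with GSK126 and 57908 and 30104 with vehicle. It fell 4.53-fold with GSK126 (-2.18 [-2.22, -2.14]), and its ratio was -0.78 with vehicle. The libraries of day 3 were close to each other, and the GSK126 library of day 6 was the lowest of the 4. Ccnb2, whose promoter is printed above, had 4914 and 1210 counts with GSK126 and 4890 and 2630 with vehicle, with ratios of -1.82 [-1.95, -1.69] and -0.73. Cenpf (-2.14) and Cenpe (-2.02), proteins of the kinetochore, and Aurkb (-1.98), the kinase of the chromosomal passenger complex, were next to Mki67. Outside the list, Espl1 (-2.19), which encodes separase, Troap (-2.29), a spindle protein, and E2f8 (-2.29), a repressor of the E2F family, were among the 15 largest falls.

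DNA replication genes followed at a smaller size. Of 26, all measured, 19 fell and 0 rose with GSK126, where 4.52% of all measured genes fell and 4.4% rose. Ratios lay between -1.89 and -0.69 with a median of -1.30, against -0.72 and 1 fall with vehicle. All 26 had a lower ratio with GSK126 than with vehicle. Uhrf1, which carries DNA methylation through replication, had 23544 and 5522 counts with GSK126 and 24044 and 11490 with vehicle (-1.89 [-1.95, -1.83] and -0.90). Mcm6, printed above, had 20552 and 7128 counts with GSK126 and 22100 and 12434 with vehicle (-1.32 [-1.38, -1.27] and -0.66). In both the libraries of day 3 were close to each other and the GSK126 library of day 6 was lowest. Tk1 (-1.88), thymidine kinase, Mcm10 (-1.78) and Rrm2 (-1.74), the small subunit of ribonucleotide reductase, were the next largest, and the span of Tk1 overlaps Afmid.

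Inhibitors of the cell cycle had a median of 0.00 over 11 measured genes. Gadd45a, a growth arrest gene of the stress response, had 638 and 2214 counts with GSK126 and 546 and 666 with vehicle (1.99 [1.82, 2.18] and 0.45). Gadd45b rose by 1.42, against 0.38 with vehicle, and Cdkn1a, p21, had a ratio of 0.98 against 0.52. Cdkn2d, an inhibitor of CDK4 and CDK6, fell by 1.22. The other members stayed under 2-fold.

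Ezh2 itself, an E2F-regulated gene and the target of GSK126, had 8520 and 3854 counts with GSK126 and 8200 and 4784 with vehicle, with ratios of -0.94 [-1.02, -0.86] and -0.61. Its transcript was lower on day 6 in both courses and close between treatments on day 3; the compound acts on the protein, so this level does not check the labels. Of 15 genes of PRC2 and of H3K27 demethylases, 1 fell and 0 rose, near the 4.52% and 4.4% of all measured genes. The gene that fell was Phf19, an accessory subunit, with 470 and 152 counts (-1.41 [-1.82, -1.05], vehicle -0.76). The list's median was -0.22.

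Some genes of the amino acid and endoplasmic reticulum stress responses rose, and the rest had smaller positive ratios. These pathways raise amino acid uptake and synthesis and the folding capacity of the secretory route. Of 22, all measured, 8 rose and 0 fell, where 4.4% of all measured genes rose and 4.52% fell. The median was 0.84, against 0.24 with vehicle. All 22 had ratios above 0 and above the vehicle ratio, except that with library-size scaling 20 were above 0 and 21 above vehicle.

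Trib3 (chr2:152337425-152344060), a pseudokinase induced by the transcription factor ATF4, had 688 and 11622 counts with GSK126 and 314 and 1518 with vehicle (4.28 [4.12, 4.44] and 2.43). Slc7a11, printed above, had 380 and 2740 counts with GSK126 and 158 and 562 with vehicle (3.05 [2.83, 3.28] and 1.98). For both, the GSK126 library was the higher of each day and the day 6 library with GSK126 stood far above the rest. Aldh1l2, a mitochondrial folate enzyme, rose from 12540 to 60074 counts (2.46 [2.42, 2.50]), against 12152 and 21224 with vehicle. Chac1 (2.43), which degrades glutathione, Ddit3 (2.39), the factor CHOP, and Asns (1.85), asparagine synthetase, also rose. Atf4 itself had 25774 and 39114 counts with GSK126, a ratio of 0.80, and 26420 and 23492 with vehicle. The chaperones of the endoplasmic reticulum moved little: Hspa5 had 0.55, Hsp90b1 0.04 and Manf 0.17.

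Many interferon-stimulated genes were lower on day 6 with GSK126. Of 22 measured of 27 listed, 12 fell and 1 rose, beside 4.52% and 4.4% of all measured genes. The median was -1.05, against -0.23 with vehicle, where 1 fell. In 21 of 22 the ratio was lower with GSK126. Ifit1 (chr19:34640889-34650009) had 470 and 74 counts with GSK126 and 234 and 266 with vehicle (-2.43 [-3.01, -1.96] and 0.35). The GSK126 library was the highest of the 4 on day 3 and the lowest on day 6. Oas2, which senses double-stranded RNA, was likewise highest with GSK126 on day 3 and lowest with GSK126 on day 6. It had 334 and 38 counts with GSK126 (-2.87 [-3.70, -2.24]), against 162 and 134 with vehicle. Usp18, a negative regulator of interferon signalling, had 354 and 80 counts against 178 and 176 with vehicle (-1.92 [-2.48, -1.44]).

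Not every member was high with GSK126 on day 3. Ifi27l2a had 2410 counts on day 3 with GSK126 and 2430 with vehicle, and 324 and 1574 on day 6 (-2.68 [-2.94, -2.45] and -0.46). Oasl2 had 362 and 68 counts with GSK126 and 412 and 228 with vehicle. For these the difference between treatments lay on day 6. Xaf1, a proapoptotic member, rose from 1920 to 5682 counts (1.77 [1.66, 1.88]), against 1398 and 1280 with vehicle. Of these genes the low ones, such as Oas2, have the widest intervals.

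Part of the immediate early genes fell, to a like number in each course. These genes are known to answer growth factors, serum and stress within minutes. Of 24 measured, 10 fell and 1 rose with GSK126 (median -0.55), and 11 fell and 2 rose with vehicle (median -0.81). The share that fell over all measured genes was 4.52% with GSK126 and 1.11% with vehicle. Fos had 11862 and 838 counts with GSK126 and 12518 and 454 with vehicle, with ratios of -3.62 [-3.77, -3.48] and -4.61. Zfp36, printed above, had 8246 and 910 counts with GSK126 and 11266 and 1138 with vehicle (-2.97 [-3.12, -2.84] and -3.14). Day 3 was high and day 6 low in both treatments for both genes, so the treatments lay closer to each other than the days.

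Ier2 (-2.64), Egr2 (-2.53) and Egr1 (-2.27), with vehicle ratios of -3.58, -2.50 and -2.80, were also among the 15 largest falls. Suv420h2, a histone H4 methyltransferase, had -2.56 and -2.63 in the same way. Atf3, which belongs to the stress response as well, rose from 466 to 2700 counts (2.73 [2.54, 2.94]), and from 296 to 830 with vehicle. Most of the large ratios of this list were therefore shared by both courses, and Atf3 went against them.

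Contractile and serum response genes had a median of -0.74 over 17 measured, against -0.39 with vehicle. With GSK126 3 fell and with vehicle 2, beside 4.52% and 1.11% of all measured genes. Cyr61, a matricellular target of YAP and SRF, had 65958 and 12444 counts with GSK126 and 77948 and 22416 with vehicle (-2.20 [-2.24, -2.16] and -1.63). Acta2, smooth muscle actin, had 193938 and 62006 counts with GSK126 and 283496 and 161360 with vehicle (-1.44 [-1.46, -1.42] and -0.65). Both were lower with GSK126 than with vehicle on each day. Actg2 fell by 1.15, and with library-size scaling 5 members fell. Postn, periostin, a matrix protein of fibrous tissue and bone surfaces, had 320680 and 112582 counts with GSK126 and 438456 and 330224 with vehicle (-1.31 [-1.32, -1.29] and -0.24).

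Genes of cholesterol synthesis had lower levels on day 6. All 23 measured had ratios below 0, and 9 fell, where 4.52% of all measured genes fell. The median was -0.91, against -0.53 with vehicle. In 22 of 23 the ratio was lower with GSK126, Dhcr7 being the exception (-0.22 against -0.37). Lss, lanosterol synthase, had 13050 and 4610 counts with GSK126 and 15428 and 8568 with vehicle (-1.30 [-1.37, -1.23] and -0.68). Its level was lowest in the GSK126 library of day 6 and highest with vehicle on day 3. Stard4 (-1.37), a sterol carrier, Hsd17b7 (-1.22), Nsdhl (-1.20) and Idi1 (-1.20) were the others farthest from 0. The count of falls depended on scaling, with 12 for library size and 6 with Rn45s left out.

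**Figure D4:**
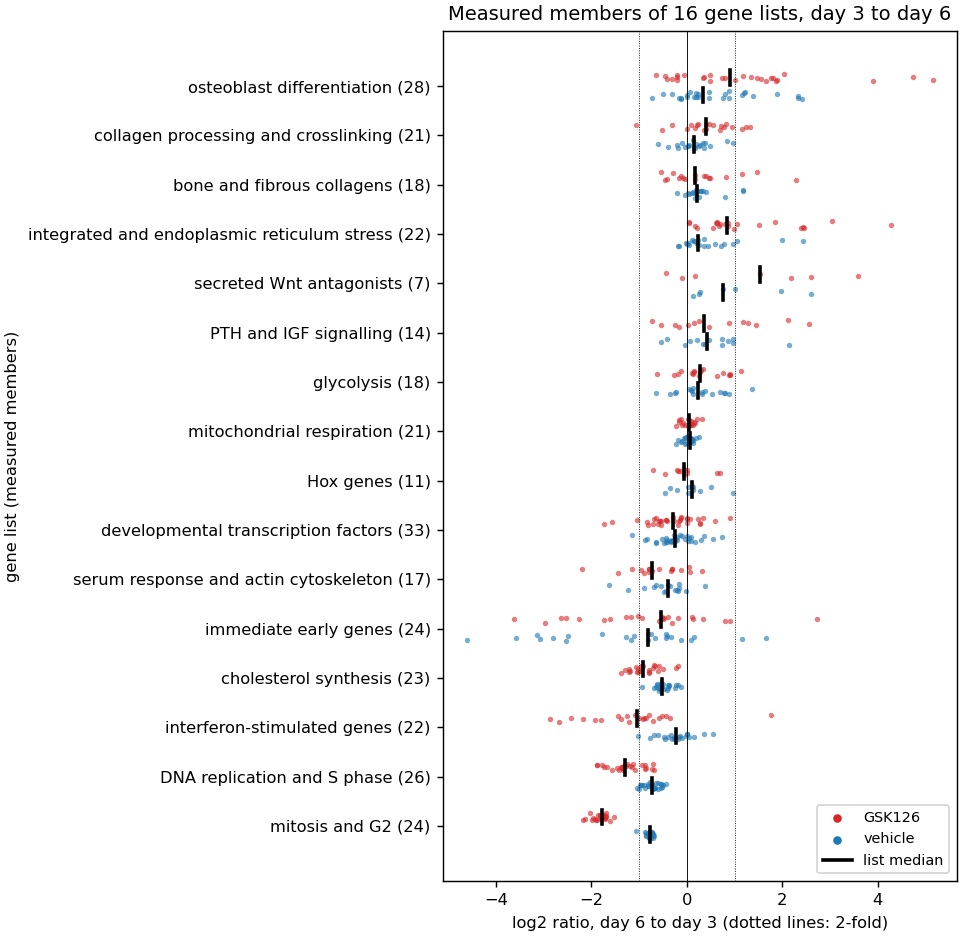
Log2 ratios of day 6 to day 3 for the measured members of 16 gene lists, with GSK126 in red, vehicle in blue, a black bar at each list's median and the number measured in brackets. The mitosis and S phase lists sit left of their vehicle values, and mitochondrial respiration lies around 0 in both courses.

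Among signalling genes, secreted Wnt antagonists had the highest median. It was 1.53 over 7 measured of 12 (vehicle 0.76), and 4 rose, where 4.4% of all measured genes rose. Of those that rose, Dkk1 and Frzb were under 1 CPM on day 3 with GSK126 and entered through day 6. The ratio was higher with GSK126 than with vehicle in 4 of the 7 and lower in 3, with a median difference of 0.05. Summed over the list, levels were 407 and 422 CPM with GSK126 and 486 and 574 CPM with vehicle. Wif1, Wnt inhibitory factor, had 818 and 4288 counts with GSK126 and 176 and 624 with vehicle (2.59 [2.44, 2.75] and 1.98). Frzb had 20 and 230 counts with GSK126 and 0 and 2 with vehicle (3.59 [2.80, 4.83]). Both were above vehicle on each day. Notum, which removes the lipid of Wnt proteins, rose by 2.19 with GSK126 and by 2.60 with vehicle, and Dkk1 is described above. Axin2, a feedback target of beta-catenin, had -0.13 with GSK126 and 0.53 with vehicle, while Tcf7 rose by 1.57 and by 1.39 with vehicle. Of the ligands, Wnt7b (2.24), Wnt11 (2.27) and Wnt10b (1.37) rose and Rspo2 fell by 1.40. Wnt7b rose farther with vehicle (4.32), and Wnt10b had 0.13 there.

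Growth factor genes of the insulin-like family rose. Igf2 had 508 and 2618 counts with GSK126 and 222 and 878 with vehicle (2.56 [2.37, 2.77] and 2.14), and the neighbouring noncoding gene H19 had 222 and 2652 against 100 and 446 (3.77 [3.50, 4.07] and 2.30). Igf1 rose by 1.45, and the binding proteins Igfbp6 and Igfbp2 by 2.12 and 1.29. Igfbp6 had 670 and 2540 counts with GSK126 and 1040 and 1198 with vehicle, so on day 3 it was the lower with GSK126. Of the 14 measured genes of parathyroid hormone and IGF signalling 5 rose and 0 fell, beside 4.4% and 4.52% of all measured genes. Medians were 0.37 and 0.41 in the 2 courses.

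Id1 and Id2, targets of bone morphogenetic proteins that block helix-loop-helix factors, fell by 2.25 and 1.65, against -1.60 and -1.05 with vehicle. The antagonists Nog (1.49) and Chrd (1.22), the ligand Tgfb1 (1.01) and Tgfbi (1.36) rose, and the median of the 26 measured genes of this pathway was -0.19. Tnfrsf11b, osteoprotegerin, the decoy receptor that restrains osteoclasts, had 17836 and 48790 counts with GSK126 and 6476 and 10620 with vehicle (1.65 [1.62, 1.69] and 0.88). Both GSK126 libraries were above both vehicle libraries. Tnfsf11, its ligand RANKL, had 0 counts in all 4 libraries, and Ccl2, a monocyte attractant, fell from 312 to 34 counts (-2.93 [-3.81, -2.27]; vehicle -1.75).

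Calcium handling genes held large single changes. Atp2a3 had 142 and 4852 counts with GSK126 and 80 and 272 with vehicle, and Slc8a3, a sodium-calcium exchanger, had 624 and 6052 against 116 and 442 (3.48 [3.31, 3.65] and 2.08). Its relative Slc8a1 fell from 1220 to 206 counts, against 1694 and 680 with vehicle (-2.35 [-2.68, -2.06] and -1.15). The exchangers thus moved in opposite directions. Car3, a carbonic anhydrase, rose by 2.48 and Itpr3, a calcium channel of the endoplasmic reticulum, by 1.23. Of 17 measured 4 rose and 1 fell, beside 4.4% and 4.52% of all measured genes.

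Calls among developmental genes, a class known for PRC2 targets, were near the background in this interval. Of 11 measured Hox genes of 32 listed, 0 rose and 0 fell, with a median of -0.07. Of 33 measured developmental transcription factors 0 rose and 3 fell, Lhx9 (-1.74), Sox11 (-1.57) and Six2 (-1.03), with a median of -0.28 against -0.25 with vehicle. Over all measured genes 4.4% rose and 4.52% fell, so in lists of this size these counts are near the background. In 21 Hox genes and 14 developmental factors neither GSK126 library reached 1 CPM.

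The share of genes whose span met an island of H3K27me3 called at 24 hours was larger among those that rose later. Islands of the mark, called by the authors on 1 ChIP library per treatment, numbered 34498 in vehicle cells and 24947 in GSK126 cells, covering 148 and 167 Mb. A vehicle island met the span of 132 of the 527 genes that rose (25.0%), of 38 of the 541 that fell (7.02%) and of 625 of all 11965 measured (5.22%). For the GSK126 list the counts were 104 (19.7%), 28 (5.18%) and 564 (4.71%). Genes that rose were low on day 3, many entered the comparison through day 6 only, and low genes met islands more often in any case. Among genes of 1 to 4 CPM in the GSK126 library of day 3, which all entered through that day, a vehicle island met 33 of 125 that rose (26.4%) and 196 of 1205 that did not (16.3%). For the GSK126 list these shares were 22.4% and 14.1%. This split was added after the data were seen, and the median level of both sets on day 3 was near 1 log2 CPM (0.997 and 1.01). A longer span has more room to meet an island, and span length was not compared between any of these sets. Of the 219 genes that rose with vehicle 62 (28.3%) met a vehicle island, so the larger share was not particular to the GSK126 course.

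**Figure D5:**
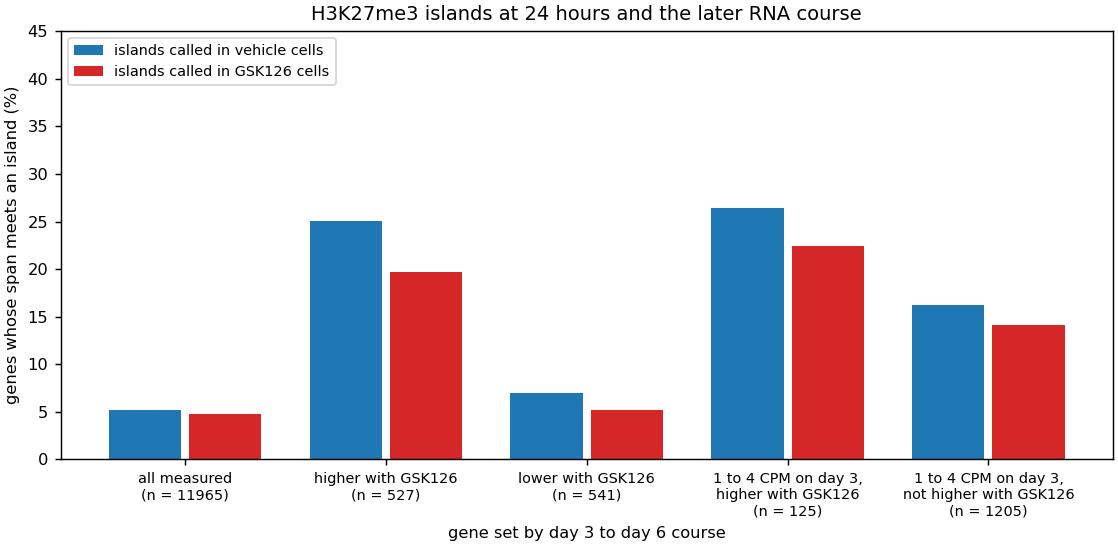
Percent of genes whose span meets an H3K27me3 island of the vehicle list (blue) or GSK126 list (red), for gene sets made from the day 3 to day 6 course with GSK126. Genes that rose reach 25.0% and 19.7%, and among genes of 1 to 4 CPM on day 3 those that rose reach 26.4% on the vehicle list, against 16.3% of the others.

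Of the 527 genes, 95 met islands of both lists, 37 of the vehicle list alone, 9 of the GSK126 list alone and 386 of neither. This split was not made for all 11965 measured genes, of which a vehicle island met 625 and a GSK126 island 564. It therefore does not tell whether islands of the vehicle list alone were particular to genes that rose. Ostn met vehicle islands at chr16:27344401-27346000 and chr16:27347601-27350200 (mm10), with fold enrichments of 2.42 and 2.87 in the authors' deposited table, and no GSK126 island. Gpr141 met the vehicle island chr13:19803601-19806400 (3.01 in the same table) and no GSK126 island. Atp2a3, Slc36a2, Col9a1, Frzb and Wif1 met islands of both lists. Genes that fell were found in each group too. Tmem158 and Oas2 met islands of the vehicle list alone, and Slc8a1 and Ifit1 met islands of both lists. Of the genes that rose, Bglap, Bglap2, Ibsp, Spp1, Ifitm5, Avil, Cdsn and Trib3 met none of either list. The mark was measured once, before both RNA samples, so nothing here tells its level on day 3 or day 6.

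The difference between the courses (the GSK126 ratio minus the vehicle ratio) was at least 2-fold higher for 242 of 12052 genes (2.01%) and at least 2-fold lower for 240 (1.99%). Among genes of at least 5 CPM in any of the 4 libraries, the largest positive differences that came from a rise with GSK126 were those of Ostn, Gpr141, Avil, Col9a1, Atp2a3, Cdsn, Angptl6, Bglap2 and Myzap. Some of the other extremes rested on 1 vehicle library and not on the GSK126 course. Ephx4 had 18 and 6 counts with GSK126 and 1542 and 8 with vehicle. Corin had 2 and 2 with GSK126 and 6 and 572 with vehicle, and Sap30l had 2468 and 2622 against 3052 and 61378. In these the GSK126 course was flat or near 0 counts, and 1 vehicle library was high among the 4 of days 3 and 6. On day 10 Ephx4 had 2128 counts in GSK126 cells and 1760 in vehicle cells, and Sap30l had 26558 and 2808, so high values were found in GSK126 cells too, while Corin had 4 and 4.

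On days 3 and 6 Pcdhac2, Inpp5e and Rnf220 had the pattern of Sap30l. They had 17298, 12818 and 20318 counts in the vehicle library of day 6 and 1374 to 4818 in the other 3. Unlike Sap30l, they were low on day 10 in GSK126 cells (1374, 1892 and 3250 counts), and also in vehicle cells (1546, 2746 and 3476). Spans of Inpp5e and Pmpca overlap. Ngfr, the neurotrophin receptor p75, had 3550 and 3106 counts with GSK126 and 1060 and 7404 with vehicle, so it was the higher with GSK126 on day 3 and the lower on day 6.

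Tmem158 (chr9:123259057-123260789), a membrane protein known as a Ras-induced senescence gene, had the largest fall of the course. It had 58610 counts on day 3 and 148 on day 6 with GSK126, a ratio of -8.41 [-8.78, -8.10], and 144 and 184 with vehicle. On day 10, after withdrawal, it had 44420 counts in GSK126 cells and 2242 in vehicle cells. The GSK126 library of day 6 was thus at the vehicle level between 2 high libraries, and with 1 library a day a property of a library and of the cells cannot be told apart.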

How the data were processed

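RNA of MC3T3 cells was sequenced on days 3, 6 and 10 with vehicle or 5 µM GSK126, 1 library per group, grouped by sample title. Per the labels' protocols, RNA libraries came from the TruSeq v2 mRNA kit, which does not mark strand. Per the submitters' processing notes, the tools were CASAVA 1.9, TopHat2 2.0.6, HTSeq 0.5.3p9, BWA 0.5.9 and SICER 1.1 with build mm10; the role of each tool, the gene annotation, how reads were counted and the island-calling settings are not stated there. Gene counts, as deposited by the authors, are not normalized, and every one was even, so a fragment was taken as 2 counts. The authors' RPKM values were used to give levels per length. The authors' island lists give read counts, a fold enrichment of ChIP over input (a ratio) and a p-value and adjusted p-value per island, called per treatment on 1 ChIP library against 1 input library, and the lists keep islands up to an adjusted p-value of 1.

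Counts were scaled by TMM factors from all 6 RNA libraries (edgeR 4.0.16, R 4.3.3) and turned into log2 CPM with a prior count of 2. A gene was measured at 1 CPM or more in either library of a course and called at 2-fold. No test was possible with 1 library a side; the binomial intervals on fragments cover counting error only, and nothing says that libraries came from separate cultures. The calling step was tested on simulated data. A gene met an island when at least 1 bp of its span was covered. DESeq2 1.42.0 gave size factors for an alternative scaling. The other scalings were library size, TMM from 4 libraries and TMM with Rn45s left out. Tables and figures were made with Python 3.11.15, pandas 2.3.3, scipy 1.17.1 and matplotlib 3.10.9.

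The genes named were the 15 largest rises and 15 largest falls with GSK126 among genes of at least 5 CPM, the 10 largest differences of courses each way, the 4 largest ratios of each of 38 gene lists, and 10 markers (Runx2, Sp7, Alpl, Col1a1, Spp1, Ibsp, Bglap, Dmp1, Phex and Ezh2). Of 175 such genes, 14 overlap another measured gene, so their reads may be shared (Aspn, Gadd45a, Hoxa5, Inpp5e, Lss, Mxd3, Omd, Plin4, Rbbp7, Runx2, Scx, Timp1, Timp3 and Tk1). Further members of the lists were given as examples chosen after their values were seen. The comparison, lists and rules were chosen with earlier results of these data known. Of 730 list entries, 3 were not matched in the table. Rows whose name occurs more than once (69) were counted and not named.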

Additional observations from a re-analysis of the deposited data

Results flagged for a closer look

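Among the genes named by rule, a gene was singled out when it rose or fell at least 2-fold with GSK126 and its vehicle ratio had the opposite sign and a counting interval on the other side of 0. None of these differences between the courses was tested, since each rests on 4 single libraries. Tmem158 had a ratio of -8.41 with GSK126 and 0.51 with vehicle. Otor, which encodes the secreted protein otoraplin, had -2.14 with GSK126, from 1106 to 216 counts, and 0.25 with vehicle, from 790 to 836 counts. Me1, the cytosolic malic enzyme that supplies NADPH, had 1.14 with GSK126, from 13188 to 25202 counts, and -0.12 with vehicle, from 13062 to 10670. Loxl4 had 1.15 with GSK126 and -0.10 with vehicle.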

How the results depend on the processing

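Depth limits low genes most, and counts of calls followed the minimum level. With at least 5 CPM, 310 genes rose with GSK126, 111 rose and 72 fell with vehicle, and the difference of courses was 2-fold higher for 135 and lower for 149. With no minimum, 1741 rose and 1627 fell with GSK126, 1295 and 905 with vehicle, and the difference was higher for 1612 and lower for 1536, since genes of a few counts then enter. With islands of at least 2-fold enrichment, the GSK126 list met 3.17% of measured genes, 14.8% of those that rose and 3.14% of those that fell, and the vehicle list met 4.40% of measured genes. With spans extended by 2000 bp, the lists met 7.41% (GSK126) and 8.78% (vehicle) of measured genes. Other scalings, prior counts of 0.5 and 8, and halved counts left each of these counts within 1.5 times. Over 38 list medians and their alternatives 292 of 341 values moved by less than the members' median counting error, 49 moved farther and 0 reversed a called value, while 12 changed sign without a call, in 10 lists, such as blood markers (-0.65 to 0.80 at 5 CPM) and endothelial markers (0.65 to -0.38). Over 175 named genes 1464 of 1575 values stayed within the gene's counting interval, 111 moved and 0 reversed. No replicate could be left out. No paired analysis was possible because each group holds 1 library.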

Other observations

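Genes of mitochondrial respiration moved little between day 3 and day 6, and several of glycolysis were higher on day 6 in both courses. The 21 measured genes of mitochondrial respiration had ratios between -0.23 and 0.31 with GSK126. Their median was 0.05 with GSK126 and 0.06 with vehicle, and -0.07 with GSK126 under library-size scaling. Among them 0 rose and 0 fell, beside 4.4% and 4.52% of all measured genes, so these counts alone are near the background. Glycolysis had a median of 0.27 over 18 measured genes (vehicle 0.23), with 14 above 0 and 4 below with GSK126. Pdk1, which holds pyruvate back from the mitochondria, rose by 1.13, and by 1.36 with vehicle. Pfkl, Aldoa and Pgk1 stayed under 2-fold, with ratios of 0.91, 0.89 and 0.89 with GSK126 and 0.89, 0.70 and 0.79 with vehicle. Fatty acid synthesis had a median of -0.55 over 13 genes (vehicle -0.35), with falls of Elovl6 (-1.58), a fatty acid elongase, and Acacb (-1.20) and a rise of Me1 (1.14).

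Of the Notch genes 8 of 16 were measured, with a median of -0.41, and Jag1, a ligand, fell by 1.04. Hedgehog genes had 0 rises and 0 falls over 8 measured, with a median of -0.37, and 3 fell with library-size scaling. Over all measured genes 4.4% rose and 4.52% fell, so single calls or none in lists this short are near the background. Among 17 measured FGF genes Fgf14 rose from 10 to 224 counts (4.41, vehicle 4.73) and Etv5, a target of FGF signalling, fell by 1.03, against 0.11 with vehicle. Imprinted genes other than Igf2 and H19 included Peg10, which fell by 1.76, and Mest, with -0.60.

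Summed over all markers of a list, adipocyte markers had 9.38 CPM on day 3 and 12.6 on day 6 with GSK126, muscle markers 7.73 and 5.94, blood markers 17.2 and 23.7, endothelial markers 67.8 and 54.0 and neuronal markers 13.7 and 47.3. The last is mostly Tubb3, a tubulin, which went from 1488 to 4634 counts, and from 670 to 1360 with vehicle. Fibroblast and tendon markers had 4526 and 3188 CPM with GSK126 and 5130 and 4612 with vehicle. Scx, a tendon factor whose span overlaps Bop1, rose by 1.35, and Cd34 had -0.80.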
